A study of Mus musculus with 12 samples.

Results

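The genes described here are 10 that hepatocytes around the central vein of the liver lobule express more strongly than other hepatocytes: Glul, Cyp2e1, Cyp1a2, Oat, Rhbg, Slc1a2, Axin2, Lgr5, Aldh1a1 and Tbx3. They were chosen by symbol for this known location, with earlier results of these data known. All 10 were found among the 18560 genes of the deposited table. RNA sequencing of whole liver gave each gene's level as FPKM, its fragment count divided by transcript length and library size. There were 12 libraries from mice aged 12 months, 3 in each of 4 groups. These were OXR1A-/- (knockout) males, wild-type males, knockout females and wild-type females. OXR1A is an isoform of the product of Oxr1, a gene that protects cells against oxidative damage. The labels give neither the strain nor the design of the allele. Nor do they tie the 3 samples of a group to different animals, and a p-value here is set by the spread of those samples, some of which may be technical.

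Hepatocytes differ along the path of blood from the portal vein to the central vein. Endothelial cells of the central vein release Wnt ligands and R-spondins, which together stabilise beta-catenin, the R-spondins through receptors such as LGR5. Together with TCF/LEF factors on DNA, beta-catenin then holds the pericentral program in the nearest hepatocytes: glutamine synthesis from ammonium, oxidation of drugs and alcohol by cytochromes P450, and feedback regulators such as AXIN2. In whole liver, fewer pericentral cells and less RNA per cell cannot be told apart.

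Some features of the libraries touch the results. Oxr1 averaged 23.4 ± 1.48 FPKM in knockout males against 17.9 ± 5.61 in wild-type males, and 20.2 ± 0.642 in knockout females against 18.5 ± 1.85 in wild-type females (SD, n = 3 each). The table has 1 row for this gene and no isoforms, and so gives no check on the missing isoform. Depth, estimated from the steps between low values, was about 20.7 to 30.7 in units of 1e+06 fragments per library. Long transcripts were scarcer than average in wild-type male 2, where the slope of a gene's log2 deviation on log2 transcript length was -0.215, against -0.0921 to 0.123 in the other libraries. Knockout male 3 held a trace of the female RNA Xist (0.82 FPKM against 0.04 to 0.08 in the other males). Knockout female 1 and wild-type female 1 held traces of the Y-linked Eif2s3y (0.85 and 1.89 FPKM against 0 to 0.1 in the other females). Summed markers of hepatocytes were at 47144 to 67301 FPKM in every library. The differences reported are between log2(FPKM + 1) values, knockout minus wild type or males minus females, with their standard error (SE). A difference is called where limma's Benjamini-Hochberg adjusted p over 11514 tested genes is under 0.05, and all 10 genes were among those tested.

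Of genes with a promoter given, Aldh1a1 was called in knockout males and between the sexes. Glul was higher in every knockout library than in any wild-type library, but was called in neither sex. Rhbg, also called in knockout males, had no promoter to show. Slc1a2 holds matches to the TCF/LEF core and varied little. Cyp1a2 also holds a match and was lower without overlap in knockout males (log2 difference -0.63, not called). A link between matches and differences was not tested. The promoters of Aldh1a1, Glul and Slc1a2 are shown here. Each runs from 250 bases before to 50 bases after a transcript start, 5′ to 3′ (RefSeq, GRCm38.p6). Capitals mark the TCF/LEF core CTTTGA or its reverse complement TCAAAG, the only motif searched, on both strands. The Slc1a2 window lies inside the gene, which begins at 102658239. The tabled value of Slc1a2 covers several transcripts, and the start shown is 0 bases from the nearest of their starts.
Glul, chr1:153899679-153899978, + strand: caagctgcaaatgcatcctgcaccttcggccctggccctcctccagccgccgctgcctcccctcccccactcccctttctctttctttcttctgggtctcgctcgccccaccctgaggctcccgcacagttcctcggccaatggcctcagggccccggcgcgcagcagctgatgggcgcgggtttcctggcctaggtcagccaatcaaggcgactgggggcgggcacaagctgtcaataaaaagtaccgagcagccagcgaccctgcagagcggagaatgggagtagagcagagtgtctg
Aldh1a1, start 7 bases from that of the tabled transcript, chr19:20601718-20602017, + strand: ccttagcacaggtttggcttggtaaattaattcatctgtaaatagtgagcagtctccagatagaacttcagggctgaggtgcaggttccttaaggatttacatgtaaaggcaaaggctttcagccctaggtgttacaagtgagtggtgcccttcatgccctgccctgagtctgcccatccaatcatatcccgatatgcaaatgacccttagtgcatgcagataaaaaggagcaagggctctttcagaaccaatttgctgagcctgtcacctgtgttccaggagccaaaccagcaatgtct
Aldh1a1, start 109378 bases from that of the tabled transcript, chr19:20492333-20492632, + strand: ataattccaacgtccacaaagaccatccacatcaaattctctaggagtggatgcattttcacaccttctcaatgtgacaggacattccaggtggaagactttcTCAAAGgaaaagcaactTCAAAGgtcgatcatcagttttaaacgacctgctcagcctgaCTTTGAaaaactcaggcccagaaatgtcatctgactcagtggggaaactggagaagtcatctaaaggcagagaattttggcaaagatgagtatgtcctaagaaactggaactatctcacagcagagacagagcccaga
Slc1a2, chr2:102706188-102706487, + strand: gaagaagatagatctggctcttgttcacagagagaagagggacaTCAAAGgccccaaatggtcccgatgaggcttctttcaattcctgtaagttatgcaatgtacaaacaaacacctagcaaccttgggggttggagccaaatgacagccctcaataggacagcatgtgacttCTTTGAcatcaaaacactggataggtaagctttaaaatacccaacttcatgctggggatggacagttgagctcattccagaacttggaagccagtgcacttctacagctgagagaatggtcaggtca
The core occurs in 16.0% of 32851 such promoters. A promoter was given for 7 of the 10 genes, not for Rhbg, Lgr5 and Tbx3. Among the 7, at the start nearest the tabled transcript, it occurred in 3 (once each in Cyp2e1 and Cyp1a2, at 2 places in Slc1a2) and not in Glul, Oat, Axin2 or Aldh1a1. The other Aldh1a1 start holds 3 copies. These matches describe letters in a window and say nothing of binding.

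The 10 genes spanned a wide range of levels. Cyp2e1 had the highest mean over the 12 libraries, 4421 FPKM, which ranked 17 among all 18560 genes. Aldh1a1 followed at 831 FPKM, Oat at 323, Glul at 288, Cyp1a2 at 225 and Slc1a2 at 25.3. The regulators and the ammonium transporter were low: Tbx3 averaged 7.20 FPKM, Rhbg 4.33, Lgr5 2.27 and Axin2 2.11, ranking from 5439 for Tbx3 to 9249 for Axin2. At the estimated depth the lowest library held about 80.5 fragments of Rhbg, 85.1 of Axin2, 165 of Lgr5 and 330 of Tbx3, so these 4 carry more counting error. The highest group mean was 1.10 times the lowest for Cyp2e1 and 1.13 times for Slc1a2, against 3.26 times for Rhbg and 4.02 times for Aldh1a1.

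**Figure D1:**
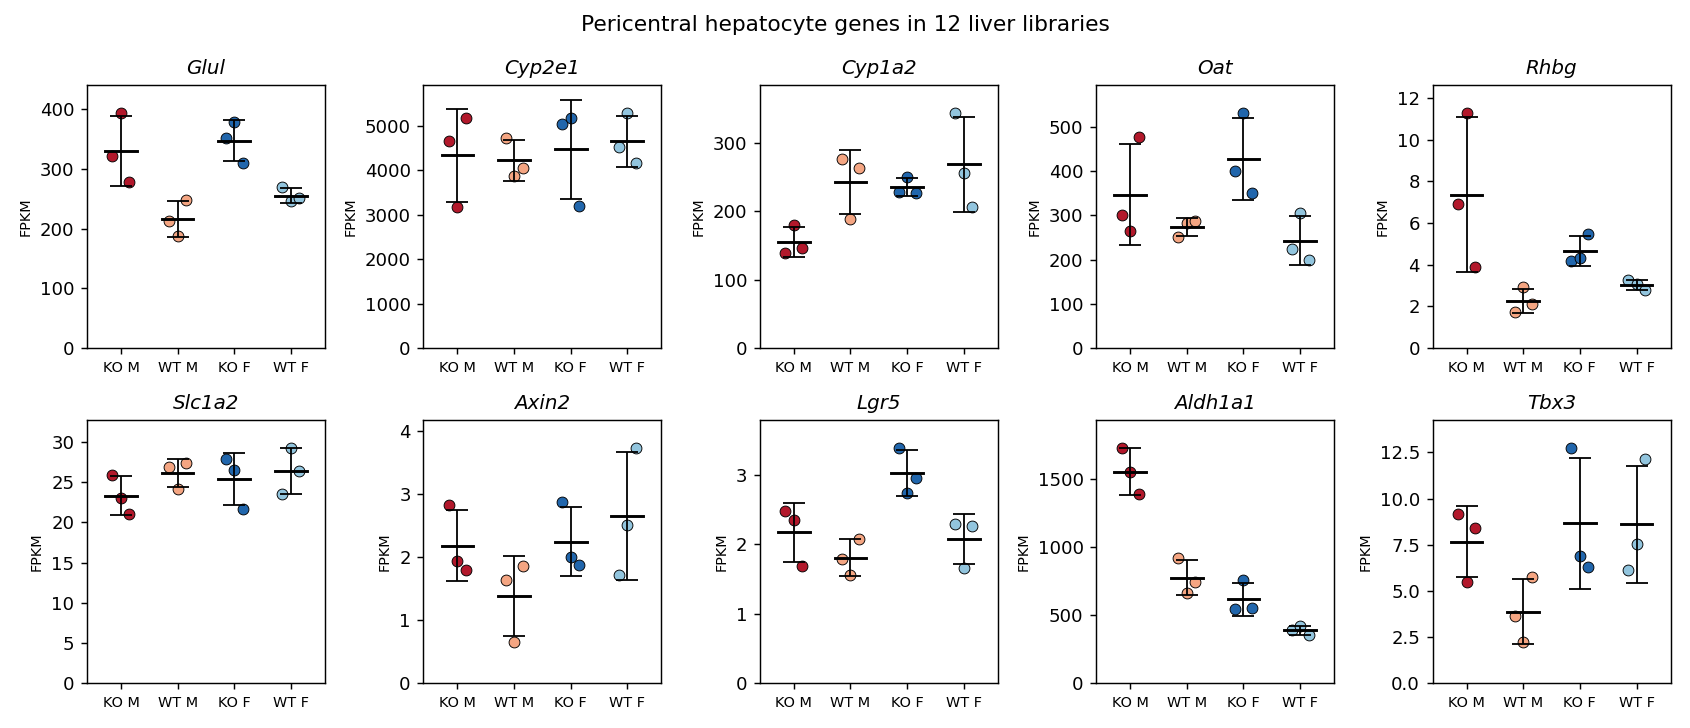
FPKM of each of the 10 pericentral genes in every library (points), by group (KO, knockout; WT, wild type; M, males; F, females), with the mean (bar) and SD (whiskers, n = 3 per group), each panel on its own linear axis from 0. Glul and Rhbg lay higher in all 6 knockout libraries than in any of the 6 wild-type libraries, and Aldh1a1 was highest in knockout males.

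Aldh1a1 (Entrez gene 11668, chromosome 19, 20492583 to 20643463) encodes retinaldehyde dehydrogenase 1, a cytosolic enzyme that oxidises retinal to retinoic acid and clears other aldehydes. It rose in knockout males. Its values were 1726, 1546 and 1384 FPKM in knockout males, against 915, 663 and 742 in wild-type males. The lowest knockout male stood above the highest wild-type male. The difference was 1.01 on the log2 scale (SE 0.16, adjusted p = 0.0131), a ratio of means of 2.01. In knockout females the values were 543, 754 and 547 FPKM, against 388, 417 and 354 in wild-type females. These groups did not overlap either, and the difference was 0.65 (SE 0.16, adjusted p = 0.514, unadjusted p = 0.00196), not called. In order, the group means were highest in knockout males, then wild-type males, knockout females and wild-type females, and of neighbours in this order only wild-type males and knockout females overlapped.

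The call of Aldh1a1 in males was kept in 19 of 22 alternative fits. It was lost with median-ratio scaling (0.78, adjusted p = 0.0581), in a fit of only the male libraries (adjusted p = 0.126) and without wild-type male 3 (0.99, adjusted p = 0.0591). Aldh1a7, a neighbouring gene of the same family, had 229 ± 30.4 FPKM in knockout males and 142 ± 11.9 in wild-type males (SD, n = 3 each; log2 difference 0.68, SE 0.14, adjusted p = 0.0330), and this rise was not called under median-ratio scaling. Its spliced transcript matched that of Aldh1a1 at 89.6% of 2050 aligned bases. How shared reads were divided is not given in the sources used here, so the 2 values are not fully separate. Aldh1a1 was the higher of the pair, by FPKM, in all 12 libraries.

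Glul (Entrez gene 14645, chromosome 1, 153899929 to 153909723) encodes glutamine synthetase, which joins ammonium to glutamate in the hepatocytes next to the central vein. Knockout males had 322, 394 and 278 FPKM, against 212, 188 and 247.5 in wild-type males. Knockout females had 352, 379.5 and 311 FPKM, against 269.6, 247 and 251 in wild-type females. All 6 knockout values lay above all 6 wild-type values, the closest being 278 in knockout male 3 and 269.6 in wild-type female 1. By sex, the differences were 0.61 in males (SE 0.15, adjusted p = 0.0533) and 0.44 in females (SE 0.15, adjusted p = 0.731), and neither was called. The male difference was called in 3 of 22 alternative fits: with a pseudocount of 0.1 (adjusted p = 0.0493), among genes with a mean of at least 5 FPKM (adjusted p = 0.0430) and without knockout male 3 (0.73, adjusted p = 0.0282). Knockout females had the highest group mean, then knockout males, wild-type females and wild-type males, and the knockout groups overlapped each other, as did the wild-type groups.

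Rhbg (Entrez gene 58176, chromosome 3, 88242874 to 88254739) encodes an ammonium transporter of the Rhesus glycoprotein family. It rose in knockout males, with 6.90, 11.3 and 3.90 FPKM against 1.74, 2.91 and 2.13 in wild-type males (log2 difference 1.27, SE 0.27, adjusted p = 0.0336; ratio of means 3.26). Knockout females had 4.16, 4.33 and 5.48 FPKM against 3.26, 3.06 and 2.80 in wild-type females (0.48, SE 0.27, adjusted p = 0.838), not called. As for Glul, every knockout library lay above every wild-type library, here by a small margin of 3.90 in knockout male 3 against 3.26 in wild-type female 1. The knockout males spread most widely, and without knockout male 2 the male difference was 0.95. The call was kept in 7 of 21 alternative fits, with adjusted p from 0.00460 to 0.252. It was lost without any single library other than knockout male 3 or wild-type female 3, and also with no filter on low values (adjusted p = 0.0638), median-ratio scaling (0.0682), quantile normalization (0.0812) and a fit of only the males (0.252).

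Oat (Entrez gene 18242, chromosome 7, 132557475 to 132576398) encodes ornithine aminotransferase, a mitochondrial enzyme that links ornithine to glutamate. In knockout males it had 301, 264 and 477 FPKM, against 249.95, 283 and 287 in wild-type males (log2 difference 0.30, SE 0.23, adjusted p = 0.438). The male groups overlapped. In knockout females it had 401, 531 and 349.95 FPKM, against 225, 305 and 199 in wild-type females. The female groups did not overlap, and the difference of 0.81 (SE 0.23) had an unadjusted p of 0.00462 and an adjusted p of 0.587, not called. Slc1a2 (Entrez gene 20511, chromosome 2, 102658239 to 102790784), the glutamate transporter that supplies glutamine synthesis, ran from 21.1 to 25.9 FPKM in knockout males against 24.2 to 27.4 in wild-type males, and from 21.7 to 27.9 in knockout females against 23.6 to 29.3 in wild-type females. All 4 groups overlapped their neighbours in the order of means, for Slc1a2 and for Oat, and the Slc1a2 differences were -0.16 in males and -0.06 in females (SE 0.13 each, adjusted p = 0.455 and 0.962).

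Both cytochromes P450 showed no call. Cyp1a2 (Entrez gene 13077, chromosome 9, 57676937 to 57683655), which oxidises caffeine and aromatic amines and is a target of the aryl hydrocarbon receptor, had 139, 180.3 and 146 FPKM in knockout males against 276, 189 and 263 in wild-type males. The highest knockout male stood just below the lowest wild-type male, and the difference was -0.63 (SE 0.20, adjusted p = 0.0947). It was called as lower with median-ratio scaling (-0.86, adjusted p = 0.0390) and with the length trend removed (-0.79, adjusted p = 0.0427). Knockout females had 228, 250.4 and 226 FPKM against 343, 255 and 206 in wild-type females, which overlapped (-0.16, SE 0.20, adjusted p = 0.928). Knockout males were the lowest group and overlapped none of the others. Cyp1a1, a close relative induced by the same receptor, lay between 0.11 and 0.37 FPKM throughout, and the spliced transcripts of the 2 genes matched at 74.1% of 1874 aligned bases.

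Cyp2e1 (Entrez gene 13106, chromosome 7, 140763819 to 140774990) encodes the ethanol- and paracetamol-oxidising P450. It had 4668, 3167 and 5168 FPKM in knockout males, against 4737, 3881 and 4050.4 in wild-type males. In knockout females it had 5038, 5173 and 3195 FPKM, against 4526, 5286 and 4158 in wild-type females. All 4 groups overlapped, the within-group spread was widest in the knockout groups (SD 1041 FPKM in knockout males and 1105 in knockout females), and the differences were 0.01 in males and -0.09 in females (SE 0.22 each, adjusted p = 0.979 and 0.968).

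Axin2 (Entrez gene 12006, chromosome 11, 108917828 to 108950783), a direct beta-catenin target whose product promotes beta-catenin breakdown, had 2.82, 1.93 and 1.79 FPKM in knockout males against 1.63, 0.65 and 1.85 in wild-type males. Knockout females had 2.87, 1.99 and 1.87 FPKM against 1.71, 2.51 and 3.73 in wild-type females. The groups overlapped in both sexes (in males 0.45, SE 0.25, adjusted p = 0.284, and in females -0.15, SE 0.25, adjusted p = 0.949). Tbx3 (Entrez gene 21386, chromosome 5, 119670534 to 119684724), a T-box repressor that beta-catenin induces in hepatocytes, had 9.15, 5.47 and 8.39 FPKM in knockout males against 3.62, 2.23 and 5.76 in wild-type males. Its knockout females had 12.8, 6.90 and 6.30 FPKM against 6.10, 7.55 and 12.2 in wild-type females. The groups overlapped again (0.87 in males with SE 0.33 and adjusted p = 0.141, and -0.0032 in females with the same SE and adjusted p = 0.9997). For both genes wild-type males had the lowest group mean, and each group overlapped the next in order.

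Lgr5 (Entrez gene 14160, chromosome 10, 115450314 to 115587780), the R-spondin receptor of the hepatocytes next to the central vein, had 2.48, 2.35 and 1.68 FPKM in knockout males against 1.78, 1.55 and 2.08 in wild-type males, which overlapped (0.17, SE 0.14, adjusted p = 0.467). Knockout females had 3.39, 2.74 and 2.95 FPKM against 2.29, 1.66 and 2.27 in wild-type females. They did not overlap, and the difference of 0.39 (SE 0.14) had an unadjusted p of 0.0181 and an adjusted p of 0.770. Knockout females formed the highest group, above and apart from knockout males, while the other neighbours in the order overlapped. Axin2, Lgr5 and Tbx3 were lowest of all 12 libraries in wild-type male 2, and the tabled transcripts of all 3 are long (4260, 4714 and 4817 bases). With the length trend removed, the Lgr5 difference in males was -0.05, opposite in sign to 0.17.

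Of the 10 genes, 2 rose in knockout males (Aldh1a1 and Rhbg) and 0 fell, where 2.55% of all tested genes were called (2.13% higher and 0.426% lower). At an unadjusted p under 0.05 there were 5, with Glul and Tbx3 higher and Cyp1a2 lower, against 23.9% of all tested genes. Aldh1a1, Glul and Rhbg were higher without overlap (21.2% of all tested genes) and Cyp1a2 was lower without overlap (2.49%). The median difference of all tested genes in males was 0.19. Under median-ratio scaling, quantile normalization and removal of the length trend it was 0.0074, -0.011 and 0.014, in that order. Set against the median of 0.19, Rhbg stood 1.08 higher, Aldh1a1 0.82, Tbx3 0.68, Glul 0.42, Axin2 0.25 and Oat 0.11, while Lgr5 stood at -0.02, Cyp2e1 at -0.18, Slc1a2 at -0.35 and Cyp1a2 at -0.82. The 10 genes had a median of 0.37. Other scalings changed which were called: Cyp1a2 as lower was the only call with median-ratio scaling, Aldh1a1 as higher the only call with quantile normalization, and both together with Rhbg were called with the length trend removed. Among all tested genes the split was 245 higher to 49 lower, against 71 to 81, 61 to 79 and 153 to 161 under these 3 scalings.

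In knockout females 0 of the 10 genes were called, where 0.0174% of all tested genes were. At an unadjusted p under 0.05 there were 4 (Aldh1a1, Oat, Glul and Lgr5, all higher), against 6.13% of all tested genes. Those 4 and Rhbg were higher without overlap, against 9.22% of all tested genes. The median difference was 0.20 for the 10 genes and 0.0030 for all tested genes. The knockout effect in males minus that in females was called for 0 of the 10 genes (0.0261% of all tested genes), and 0 had an unadjusted p under 0.05 (9.03%). The smallest limma p was that of Rhbg (0.80, SE 0.38, unadjusted p = 0.0568, adjusted p = 0.544). The effect stood higher in males for 6 genes, with Tbx3 at 0.87 (SE 0.46), Axin2 at 0.59 (SE 0.35) and Aldh1a1 at 0.36 (SE 0.23), and lower in males for 4, with Oat at -0.51 (SE 0.33), Cyp1a2 at -0.47 (SE 0.28), Lgr5 at -0.22 and Slc1a2 at -0.10. A difference between the sexes was not shown for any gene, including those called in males only.

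**Figure D2:**
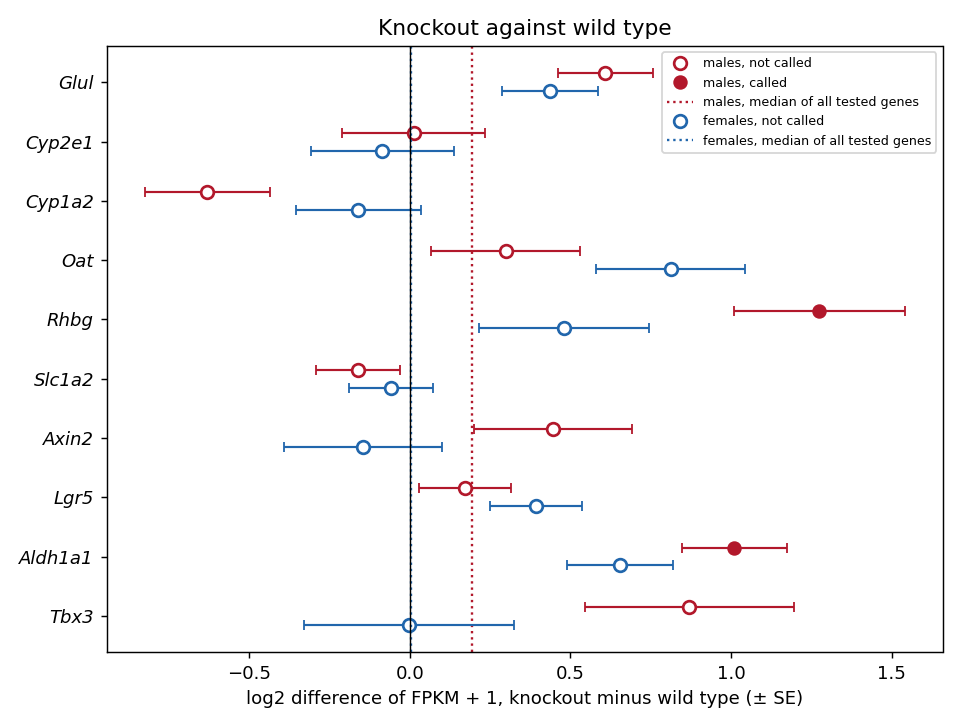
Difference in log2(FPKM + 1), knockout minus wild type, for each gene in males (red) and females (blue), with SE whiskers; filled points are called, and dotted lines mark the median of all tested genes. Aldh1a1 and Rhbg in males are the filled points, and Glul lies to the right of both medians in both sexes.

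Averaging the knockout effect over the sexes, a comparison added after the data were seen, gave 3 calls among the 10 genes, all higher, where 1.46% of all tested genes were called. Aldh1a1 differed by 0.83 (SE 0.12, adjusted p = 0.00945), Glul by 0.52 (SE 0.11, adjusted p = 0.0444) and Rhbg by 0.88 (SE 0.19, adjusted p = 0.0479). Oat, at 0.56 (SE 0.16, adjusted p = 0.106), was not called. The Aldh1a1 call held when any single library was left out. The Glul call was lost without each library except knockout male 3 and wild-type male 2 (adjusted p 0.0256 to 0.125), and so was the Rhbg call (0.00947 to 0.126). Without the 3 libraries that held RNA of the other sex, all 3 differences were larger and none was called (Aldh1a1 0.91, adjusted p = 0.0782; Glul 0.60, 0.135; Rhbg 1.10, 0.0734). In males alone, Aldh1a1 (1.09, adjusted p = 0.0469) and Rhbg (1.61, adjusted p = 0.0253) were called without those libraries. Glul and Rhbg were 2 of 151 tested genes (1.31%) with every knockout library above every wild-type library.

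Markers of some other liver cells moved with the male comparison. Endothelial markers summed to 111 to 127 FPKM in knockout males against 73.8 to 80.5 in wild-type males, and 5 of the 11 tested rose, where 2.13% of all tested genes did. Kupffer cell and macrophage markers summed to 335 to 783 FPKM in knockout males against 150 to 291 in wild-type males, and 6 of 11 rose. Stellate cell markers summed to 162 to 253 FPKM in knockout males against 110 to 128 in wild-type males, with 2 of 10 rising. In knockout males 0 of 5 tested cholangiocyte and 0 of 6 lymphocyte markers were called. Nor were any of 4 neutrophil or 4 red cell markers. The medians of these lists, in that order, were 0.04, 0.02, 0.52 and -0.30, against 0.19 for all tested genes. Hepatocyte markers summed to 47144 to 48348 FPKM in knockout males against 55795 to 67301 in wild-type males, with 0 of 8 called. At an unadjusted p under 0.05, 1 was higher and 4 were lower, against 23.9% of all tested genes in either direction. In females the ranges overlapped for endothelium (133 to 141 FPKM in knockouts, 128 to 148 in wild types), macrophages (466 to 609 in knockouts, 385 to 594 in wild types) and stellate cells (188 to 225 in knockouts, 176 to 193 in wild types), and 0 of these markers were called. Fewer of these markers were called under the other scalings. With median-ratio scaling, quantile normalization and the length trend removed, in that order, 4, 3 and 4 endothelial markers rose in knockout males, 2, 1 and 4 macrophage markers (the last of 10 tested) and 0, 0 and 1 stellate cell markers. The hepatocyte markers Alb and Apoa1 fell with the length trend removed. None of these markers was listed at 0 throughout a group. Their part in the male differences of Aldh1a1, Rhbg and Glul was not tested.

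Other genes of the same zone were called in both directions. Of 30 further pericentral genes 29 were tested, and in knockout males 2 rose and 1 fell, where 2.13% and 0.426% of all tested genes did. Aldh3a2, an enzyme that oxidises fatty aldehydes, rose with 207 ± 11.8 FPKM in knockout males against 132 ± 26.5 in wild-type males (0.66, SE 0.14, adjusted p = 0.0358), as did Aldh1a7. The value of Aldh1a7 is not fully separate from that of Aldh1a1, and Aldh1a7 stands in the retinoid list too. Cyp27a1, which hydroxylates sterols on the way to bile acids, fell with 192 ± 22.5 FPKM in knockout males against 280 ± 11.4 in wild-type males (-0.55, SE 0.11, adjusted p = 0.0294). Slc13a3, a carrier of dicarboxylates, had 10.8 ± 3.90 FPKM in knockout males against 4.98 ± 0.594 in wild-type males (0.94, adjusted p = 0.0568) and was not called. The median was 0.24, against 0.19 for all tested genes. Under 3 other scalings Cyp27a1 was called as lower in each, and Aldh3a2 in none.

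Periportal genes, the opposite zone, were called in both directions: 2 of 24 tested rose and 2 fell in knockout males, where 2.13% and 0.426% of all tested genes did. Their median was -0.19. The even split of periportal calls did not hold under other scalings. With median-ratio scaling 1 rose and 3 fell (median -0.43), with quantile normalization 1 rose and 3 fell (-0.21), and with the length trend removed 2 rose and 7 fell (-0.36), among them the urea cycle genes Cps1, Ass1 and Asl. Apoa4, an apolipoprotein of triglyceride-rich particles, rose with 968 ± 370 FPKM in knockout males against 182 ± 136 in wild-type males (2.57, SE 0.44, adjusted p = 0.0168). Ctsc, a lysosomal protease that is also abundant in myeloid cells, rose with 58.8 ± 29.8 FPKM in knockout males against 24.3 ± 2.20 in wild-type males (1.13, SE 0.25, adjusted p = 0.0447). Cdh1, the adhesion protein E-cadherin, fell to 1.41 ± 0.460 FPKM in knockout males against 7.96 ± 2.53 in wild-type males (-1.87, SE 0.22, adjusted p = 0.00243). Asl, a urea cycle enzyme, fell to 199.96 ± 37.4 FPKM in knockout males against 342 ± 57.3 in wild-type males (-0.77, SE 0.18, adjusted p = 0.0463). Apoa4, Asl and Cdh1 were called the same way under all 3 other scalings.

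Of 42 Wnt and beta-catenin pathway genes 35 were tested, and 0 were called in knockout males, where 2.55% of all tested genes were. At an unadjusted p under 0.05 there were 5 (4 higher, 1 lower), against 23.9% of all tested genes. The median of the 35 was 0.15, against 0.19 for all tested genes. Wls, which carries Wnt ligands to the cell surface, had 2.18 ± 0.347 FPKM in knockout males and 1.34 ± 0.186 in wild-type males (0.44, adjusted p = 0.0743). Rspo3, the R-spondin of central vein endothelium, had 3.41 ± 0.960 FPKM in knockout males against 2.02 ± 0.345 in wild-type males (0.53, adjusted p = 0.101). Porcn, the acyltransferase that lipidates Wnt ligands, had 1.32 ± 0.444 FPKM in knockout males against 2.13 ± 0.302 in wild-type males (-0.45, adjusted p = 0.121). Csnk1a1, a kinase that marks beta-catenin for breakdown, had 33.9 ± 6.17 FPKM in knockout males against 23.9 ± 8.34 in wild-type males (0.53, adjusted p = 0.179). Rspo3, Wnt2 and Wnt9b also stand in the endothelial marker list, whose sums are given above.

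Around glutamine and ammonium, 1 of 16 tested genes rose in knockout males: Glud1, glutamate dehydrogenase, with 414 ± 10.1 FPKM there against 298 ± 24.1 in wild-type males (0.48, SE 0.10, adjusted p = 0.0317), a call lost under all 3 other scalings. Gls2, the periportal glutaminase, had 81.0 ± 22.3 FPKM in knockout males against 127 ± 16.1 in wild-type males (-0.68, adjusted p = 0.0728), and was called as lower with quantile normalization and with the length trend removed. Prodh, proline dehydrogenase, had 57.3 ± 5.41 FPKM in knockout males against 88.9 ± 10.2 in wild-type males (-0.62, adjusted p = 0.0793). Slc1a4, a carrier of neutral amino acids, had 1.91 ± 0.535 FPKM in knockout males against 0.863 ± 0.110 in wild-type males (0.63, adjusted p = 0.0742), and 1.95 ± 0.632 FPKM in knockout females against 0.967 ± 0.206 in wild-type females (0.57, adjusted p = 0.604), without overlap in either sex. The median of these genes was -0.0013, against 0.19 for all tested genes, of which 2.13% rose. Gls2 stands in the periportal list too. With median-ratio scaling 0 of the 16 were called, with quantile normalization 0 rose and 1 fell (Gls2), and with the length trend removed 0 rose and 3 fell (Slc38a4, Gls2 and Prodh). 

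Of the aryl hydrocarbon receptor genes 0 of 6 tested were called in knockout males. At an unadjusted p under 0.05, 2 were higher, against 23.9% of all tested genes in either direction. The median of the 6 was 0.41, against 0.19 for all tested genes. The receptor itself, Ahr, had 11.6 ± 1.95 FPKM in knockout males against 6.32 ± 2.56 in wild-type males (0.83, adjusted p = 0.0827), beside the lower values of its target Cyp1a2. Nqo1, a quinone reductase, had 9.90 ± 8.37 FPKM in knockout males against 3.57 ± 0.282 in wild-type males (0.997, adjusted p = 0.135). Tiparp (0.41, adjusted p = 0.3004) and Ugt1a6a (0.41, adjusted p = 0.388) overlapped between knockout and wild-type males. Among 17 tested retinoid genes only Aldh1a7, counted above with the further pericentral genes, was called, and the median was 0.08. The retinol dehydrogenase gene Rdh16 had 45.8 ± 6.59 FPKM in knockout males against 29.0 ± 4.94 in wild-type males (adjusted p = 0.0537) and Lrat, which esterifies retinol in stellate cells, had 5.47 ± 1.72 in knockout males against 2.71 ± 0.745 in wild-type males (adjusted p = 0.0672).

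In knockout females 0 genes of these 6 lists were called, in limma. At an unadjusted p under 0.05 there were 4 higher and 2 lower of the further pericentral genes, 1 and 2 of the periportal genes, 1 and 3 of the glutamine and ammonium genes, 1 and 1 of the retinoid genes, and 0 of the Wnt and the aryl hydrocarbon receptor genes. Among all tested genes, 6.13% were under that threshold. The medians of the lists ran from -0.16 in the periportal list to 0.20 in the further pericentral list, against 0.0030 for all tested genes. Cdh1 had 1.54 ± 0.404 FPKM in knockout females and 3.68 ± 0.637 in wild-type females (-0.89, SE 0.22, adjusted p = 0.498), without overlap.

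Males and females of the same genotype differed clearly in Aldh1a1. In wild types it was higher in males, at 773 ± 129 FPKM against 386 ± 31.2 in females (log2 difference 0.99, SE 0.16, adjusted p = 0.00307; ratio of means 2.003). In knockouts it was higher in males too, at 1552 ± 171 FPKM against 615 ± 121 in females (1.35, SE 0.16, adjusted p = 0.000785; ratio 2.52). Both calls held in all 22 alternative fits. Aldh1a7 followed, with 142 ± 11.9 FPKM in wild-type males against 88.1 ± 3.66 in wild-type females (0.68, adjusted p = 0.00989) and 229 ± 30.4 in knockout males against 109 ± 17.4 in knockout females (1.07, adjusted p = 0.00127). Aldh1a1 was the only call among the 10 genes in either genotype, where 13.4% of all tested genes were called in wild types (2.31% higher) and 3.67% in knockouts (1.67% higher).

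Among the other 9 genes, Tbx3 was lower without overlap in wild-type males than in wild-type females, at 3.87 ± 1.78 FPKM against 8.60 ± 3.16 (-0.99, SE 0.33, adjusted p = 0.0642), where 34.1% of all tested genes were. It was called only without wild-type male 3 (-1.26, adjusted p = 0.0418). In wild-type males the median difference from females over all tested genes was -0.21, so Tbx3 stood -0.78 from the median and Aldh1a1 1.201. That median was -0.0020 with median-ratio scaling, 0.011 with quantile normalization and -0.0050 with the length trend removed. The split of called genes, 266 higher to 1273 lower, became 552 to 508, 586 to 499 and 846 to 721 under these 3 scalings, in that order. In knockouts, Cyp1a2 and Lgr5 were lower in males without overlap, where 12.0% of all tested genes were, and neither was called. Cyp1a2 averaged 155 ± 22.2 FPKM in knockout males and 235 ± 13.4 in knockout females (-0.61, SE 0.20, adjusted p = 0.133). Lgr5 averaged 2.17 ± 0.429 FPKM in knockout males and 3.03 ± 0.332 in knockout females (-0.35, SE 0.14, adjusted p = 0.254).

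**Figure D3:**
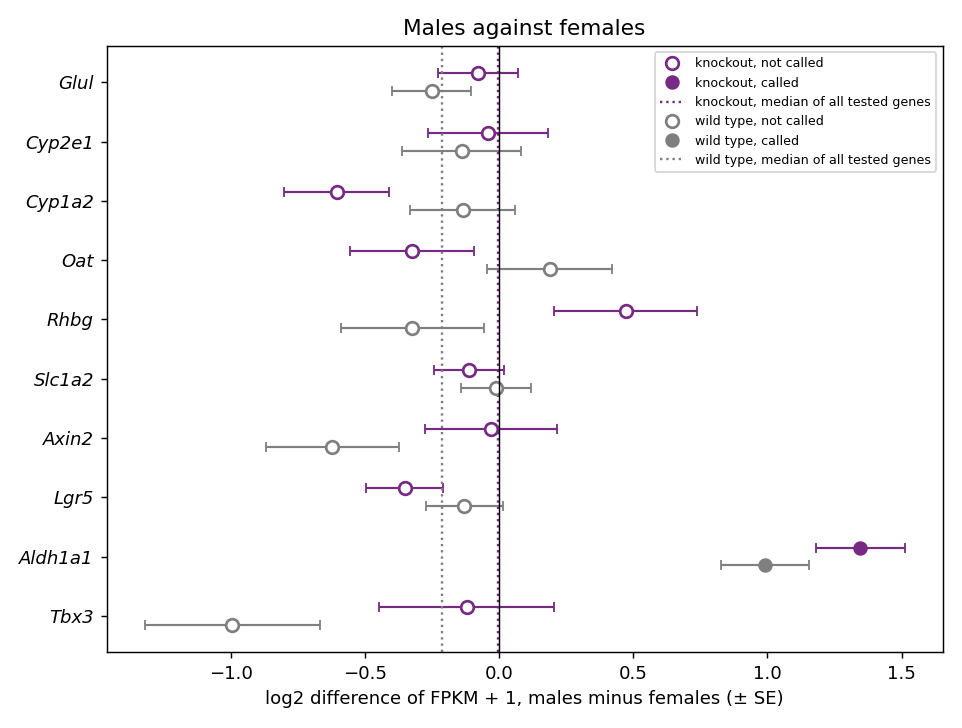
Difference in log2(FPKM + 1), males minus females, for each gene in knockouts (purple) and wild types (grey), with SE whiskers; filled points are called, and dotted lines mark the median of all tested genes. Aldh1a1 is the filled point in both genotypes, and Tbx3 in wild types lies farthest to the left.

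Some Wnt pathway genes were lower in males. In wild-type males 7 of 35 tested fell below wild-type females and 0 rose, where 11.1% of all tested genes were lower. The median of the 35 was -0.34, against -0.21 for all tested genes. With median-ratio scaling 2 fell, with quantile normalization 1, and with the length trend removed 1 fell and 1 rose. Ccnd1, the cyclin D1 gene, was among them at 2.44 ± 0.535 FPKM in males against 10.5 ± 3.76 in females (-1.70, adjusted p = 0.00525) and fell under all 3 of these scalings. In knockout males 4 fell below knockout females, where 2.01% of all tested genes were lower, and each of these also under all 3 other scalings. They included Notum, a secreted Wnt inhibitor and pericentral target, at 7.58 ± 2.28 FPKM in males against 18.5 ± 2.40 in females (-1.21, SE 0.20, adjusted p = 0.00602), and Nkd1, another feedback inhibitor, at 1.49 ± 0.208 FPKM in males against 2.83 ± 0.180 in females (-0.62, adjusted p = 0.0139). Axin2 was not called in either genotype (-0.62, SE 0.25, adjusted p = 0.111 in wild types). The other lists held calls too. Among wild types, 7 of 24 tested periportal genes were lower in males and 1 higher. Of 16 glutamine and ammonium genes 4 were lower and 0 higher. Of 29 further pericentral genes 3 were lower and 6 higher, and of 17 retinoid genes 2 and 2. Among knockouts, in the same order of lists, 4, 2, 0 and 0 were lower and 1, 0, 3 and 1 higher. Of 6 aryl hydrocarbon receptor genes 0 were called in either genotype. Endothelial markers moved with the wild-type comparison, at 73.8 to 80.5 FPKM in males against 128 to 148 in females with 7 of 11 lower. Macrophage markers did too, at 150 to 291 FPKM in males against 385 to 594 in females with 8 of 11 lower, as did stellate cell markers, at 110 to 128 FPKM in males against 176 to 193 in females with 4 of 10 lower. In wild-type males 2 of 4 neutrophil markers were lower, 1 of 6 lymphocyte and 1 of 4 red cell markers higher. Of 5 cholangiocyte and 8 hepatocyte markers 0 were called. Between knockout sexes 0 of 11 endothelial, 0 of 11 macrophage and 0 of 10 stellate cell markers were called (medians -0.11, -0.08 and -0.13). There 1 neutrophil marker was lower and 1 red cell marker higher in males. The part of these markers in the Wnt pathway differences was not tested.

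Across the 12 libraries some of these genes varied together. Of 45 pairs among the 10 genes 3 had a Pearson correlation above 0.7, on the log2 scale: Axin2 and Tbx3 at 0.91 (Spearman 0.83), Glul and Rhbg at 0.78 (0.87), and Glul and Lgr5 at 0.76 (0.81). Within groups, after group means were removed, these were 0.88, 0.45 and 0.60. Without the 2 libraries farthest from the median they were 0.83, 0.79 and 0.78. The points share library, scaling and the length trend, and Axin2 and Tbx3 are both long and both lowest in wild-type male 2. By the likeness rule, the tested genes most correlated with each member included Rspo3 for Glul, at 0.93 over 12 libraries (Spearman 0.94, 0.85 without the 2 farthest libraries, 0.90 within groups), after Slc10a3 at 0.94. Rspo3 had 3.25, 4.44 and 2.54 FPKM in knockout males 1 to 3, where Glul had 322, 394 and 278. Aldh1a1 was most like Hsd17b12 (0.98, 0.75 within groups), Rhbg most like Anxa2 (0.94, 0.96), Axin2 most like Mgea5 (0.95, 0.94), Tbx3 most like Smad7 (0.93, 0.91), Cyp1a2 most like Dclk3 (0.91, 0.91) and Lgr5 most like Cnnm2 (0.90, 0.90). Oat (Tmem216, 0.88), Slc1a2 (Mn1, 0.87) and Cyp2e1 (E430018J23Rik, 0.83) had weaker nearest neighbours. These likenesses are given as descriptions, with no test.

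**Figure D4:**
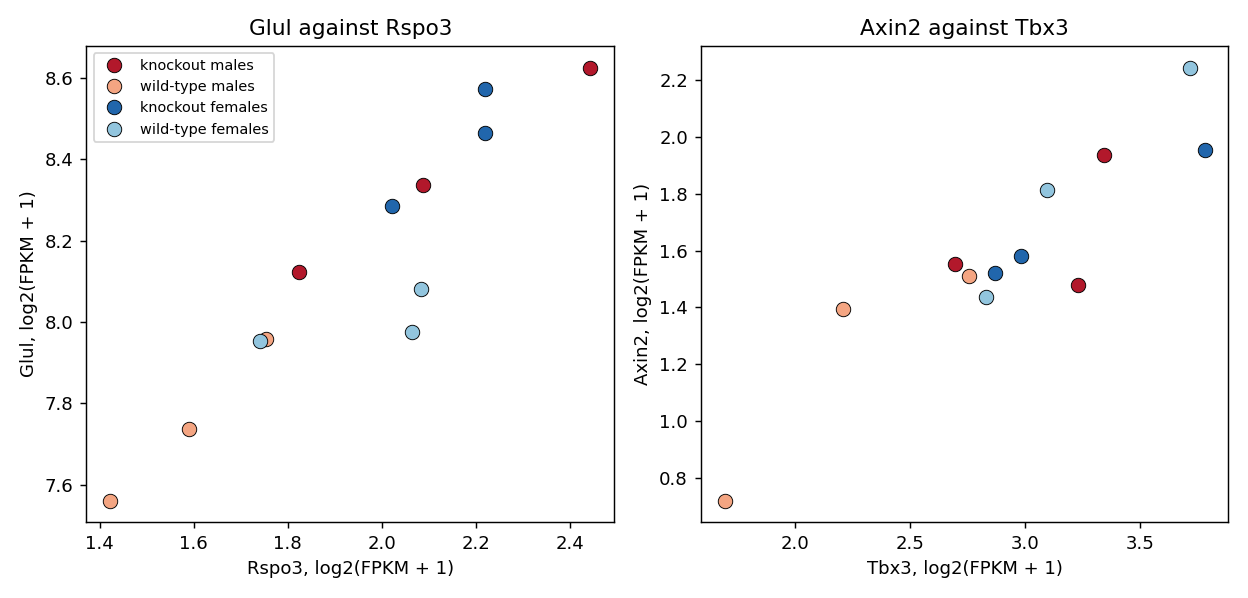
Glul against Rspo3 (left) and Axin2 against Tbx3 (right), each as log2(FPKM + 1), with 1 point per library coloured by group. The 12 points rise together in both panels (Pearson 0.93 and 0.91), and in the right panel wild-type male 2 is the lowest point on both axes.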

How the data were processed

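Liver RNA was sequenced as poly(A) RNA copied with random primers, per the labels' protocols. The deposited values are FPKM per gene, normalized to transcript length and mapped fragments by the authors, per the file headers. TopHat2 and mm10 are named in the submitters' processing notes, while the sources used here name no quantifier, annotation or filter. The 12 libraries were kept as separate samples, since at most 0.338% of the values of genes at 5 FPKM or more were identical between any pair. The test took genes that reached 1 FPKM in 3 or more libraries (11514 of 18560), on log2(FPKM + 1), which understates changes of low genes. It was run in limma 3.58.1 (R 4.3.3), two-sided, with group means fitted to all 12 libraries together, a variance trend and Benjamini-Hochberg adjustment. A check on simulated data used independent noise without shared library effects, so it cannot show how such effects bear on the calls. The comparisons fitted with limma were knockout against wild type by sex, their difference, and males against females by genotype. Folds are ratios of mean FPKM.

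The members, the 6 pathway lists and the 8 cell type lists were chosen with earlier results of these data known. Genes named from a list came mainly from the 4 with the smallest p in that comparison, and from calls under another scaling. The genes most alike were the 3 with the highest Pearson correlation over all 12 libraries, of which the closest is given, with Rspo3 for Glul. Entrez identifiers matched the RefSeq table of GRCm38 for 18502 genes, and 18140 genes (97.74%) had a transcript length in GENCODE. Depth was estimated from the spacing of values between 0.08 and 1 FPKM in transcripts under 1500 bases. It is approximate, so no counting intervals were made. Alternatives were another pseudocount, filter, scaling (median-ratio, quantile, length trend), fit or block, and leaving out each library. Leaving out 3 libraries that held RNA of the other sex and averaging over the sexes were added after the data were seen.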

Additional observations from a re-analysis of the deposited data

How the results depend on the processing

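For the 10 genes, 1184 of 1302 values under the alternatives kept their direction and call, 48 lost a call, 6 gained a call and 64 changed sign. None of the sign changes was of a called value, and the largest of those values was 0.25 in the reported fit. Aldh1a1 between the sexes held under every alternative run. The causes of the changes below were not tested, and some of the fits also held fewer samples.

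Calls among the 10 genes in males were 2 as reported, 1 with no filter, 1 with median-ratio scaling, 1 with quantile normalization and 0 in the fit of only the males; for the mean of both sexes they were 3 as reported, 1 with no filter, with either of those scalings or with the replicate block, and 0 without the 3 libraries that held RNA of the other sex. At a mean of at least 5 FPKM, Rhbg, Axin2 and Lgr5 were not tested. Leaving out each library gave 0 to 3 calls in males, 1 to 3 for the mean of both sexes and 1 to 2 between wild-type sexes.

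All genes called in males, 294 as reported, were 174 with no filter, 152 with median-ratio scaling, 140 with quantile normalization, 3 in the fit of only the males, 132 with the replicate block, 125 without the 3 libraries, and 58 (without wild-type male 3) to 570 (without knockout male 3) when each library was left out. In females, 2 as reported, they were 4 with no filter, 6 in the fit of only the females, 1 with a pseudocount of 0.1, median-ratio scaling, the length trend removed or a mean of at least 5 FPKM, 0 without the 3 libraries, and 0 to 12 leaving out each. For the difference of effects, 3 as reported, they were 5 with a pseudocount of 0.1, 5 with the replicate block, and 1 to 22 leaving out each. For the mean of both sexes, 168 as reported, they were 57 with no filter, 73 with median-ratio scaling, 404 with the length trend removed, 60 with the replicate block, 8 without the 3 libraries, and 30 to 238 leaving out each, with a split of 126 higher to 42 lower as reported against 27 to 46 with median-ratio scaling, 58 to 76 with quantile normalization and 170 to 234 with the length trend removed. Between wild-type sexes, 1539 as reported, they were 904 at a mean of at least 5 FPKM, 525 without the 3 libraries, and 675 to 2081 leaving out each. Between knockout sexes, 423 as reported, they were 216 in the fit of only those groups, 768 with the length trend removed, 123 without the 3 libraries, and 201 to 637 leaving out each.

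The sign changes were of small, uncalled differences. Without the 3 libraries they were Axin2 0.19, Glul 0.052, Slc1a2 0.024 and Tbx3 0.094 between knockout sexes, Cyp1a2 0.052 in females and 0.058 between wild-type sexes, Cyp2e1 -0.13 in males and Slc1a2 0.11 for the difference of effects. With median-ratio scaling they were Cyp1a2 0.13, Cyp2e1 0.13, Glul 0.013, Lgr5 0.044 and Slc1a2 0.24 between wild-type sexes, Cyp2e1 -0.15 and Glul -0.071 for the difference of effects, Cyp2e1 -0.22 in males and Tbx3 0.0039 in females. With the length trend removed they were Cyp1a2 0.032, Cyp2e1 0.017, Lgr5 0.15 and Slc1a2 0.27 between wild-type sexes, Cyp2e1 -0.14 and Lgr5 -0.054 in males, Cyp2e1 0.019 between knockout sexes, Glul -0.026 for the difference of effects, and Slc1a2 0.039 and Tbx3 0.080 in females. With quantile normalization they were Cyp2e1 0.18 for the mean of both sexes, Lgr5 -0.047 in males, Lgr5 0.16 and Slc1a2 0.14 between wild-type sexes, and Tbx3 0.00091 in females. Leaving out each library gave, in females, Axin2 -0.34 to 0.060, Cyp1a2 -0.33 to 0.032, Cyp2e1 -0.21 to 0.14, Slc1a2 -0.13 to 0.045 and Tbx3 -0.29 to 0.25. Between knockout sexes it gave Axin2 -0.17 to 0.10, Cyp2e1 -0.27 to 0.17, Glul -0.21 to 0.040 and Tbx3 -0.29 to 0.16, and between wild-type sexes Cyp1a2 -0.31 to 0.058 and Slc1a2 -0.087 to 0.063. Cyp2e1 ran from -0.13 to 0.22 in males, -0.11 to 0.076 for the mean of both sexes and -0.13 to 0.31 for the difference of effects.

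What the replicate numbers stand for, and whether same-numbered libraries share a source, is not given. After group means were removed, same-numbered knockout and wild-type males correlated at 0.56, 0.11 and -0.27, and females at -0.06, -0.13 and -0.02. Same-numbered males and females correlated at 0.41, -0.11 and -0.32 in knockouts and at -0.13, -0.29 and -0.15 in wild types. With the replicate block, 2 of the 10 genes stayed called in males, and for the mean of both sexes Glul (adjusted p = 0.0748) and Rhbg (0.0725) were not called. Depth limits Axin2, Rhbg and Lgr5 most.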
